A study of Homo sapiens with 30 samples.

Results

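The BMP4 time course of MDA-MB-361 was followed on 6 of the 30 dual-channel Agilent whole human genome arrays of the series, 1 array for each of 30 min, 1, 3, 6, 12 and 24 h. MDA-MB-361 is an established human breast cancer line that grew from a brain metastasis and carries the luminal, estrogen receptor-positive and ERBB2-rich pattern. On each array the Cy5 channel held RNA of cells given recombinant human BMP4 and the Cy3 channel held RNA of the same line given vehicle for the same length of time, so every ratio compares treated with untreated cells of 1 time point. The labels state that each treatment was done in triplicate with the cells pooled, and the design text speaks of pooled RNA of 3 biological replicates, so an array carries no spread between cultures. The other 24 arrays hold HCC1419, HCC1954, SK-BR-3 and ZR-75-30 at the same 6 time points. The dyes were not swapped, and a ratio read against 0 therefore contains any dye bias of its probe.

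All ratios are log2 of Cy5 over Cy3, on which 1 is a 2-fold higher level in BMP4-treated cells. "Late" means the mean of 3, 6, 12 and 24 h, and the late change is that mean minus the 30 min ratio of the same line. A probe was called held when it stayed at 2-fold or more, in 1 direction, on at least 2 consecutive time points, among the 25870 probes that stood well above background in either channel on all 6 arrays. The arrays of 30 min and 1 h lay on 1 slide and those of 3, 6, 12 and 24 h on another, so in this line the late change and the slide cannot be told apart. The change from 30 min to 1 h, and the changes among 3, 6, 12 and 24 h, each lie within 1 slide. Well above background were 65.9% to 68.1% of the probes in Cy3 and 63.7% to 68.2% in Cy5, and the log ratios of the spike-in RNAs, plotted against their designed values, had slopes from 0.525 (3 h) to 0.679 (1 h), so that true ratios are compressed. In the vehicle channel all 23 luminal genes examined were well above background on all 6 arrays, as were 11 of 18 basal and mesenchymal genes (CDH3, S100A4, TWIST1, KRT14 and TP63 among them), 4 of 8 immune genes (CD3E, CD14, CD68 and CD79A) and the endothelial genes VWF and CLDN5. KRT5, KRT6B, SNAI2 and ZEB1, the pan-leukocyte gene PTPRC and the endothelial PECAM1 and CDH5 were above it on none.

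BMP4 is a secreted ligand of the transforming growth factor beta superfamily. It assembles type I and type II serine/threonine kinase receptors, which phosphorylate SMAD1, SMAD5 and SMAD9, and these enter the nucleus with SMAD4. The ID genes, whose products bind and silence basic helix-loop-helix transcription factors, are the textbook direct targets, and SMAD6 and SMAD7 are induced as feedback inhibitors. In breast cancer cells BMP4 is known for slowing proliferation and changing migration.

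More probes passed 2-fold as time went on, at first nearly all of them higher and later in both directions. At 30 min 7 probes were at least 2-fold higher (0.0272% of those with a value) and none lower. Over the next 5 arrays, in order of time, the higher probes numbered 23 (0.089%), 26 (0.101%), 103 (0.399%), 346 (1.34%) and 320 (1.24%), and the lower ones 4 (0.0155%), 0, 8 (0.031%), 86 (0.333%) and 266 (1.03%). Up to 6 h nearly all probes that crossed the line were higher in BMP4, and lower probes made up a large share only at 24 h. The split depended on the scaling: with 1 median per array in place of the loess curve the 12 h array had 651 higher and 18 lower, and in the authors' series matrix it had 479 and 479.

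**Figure D1:**
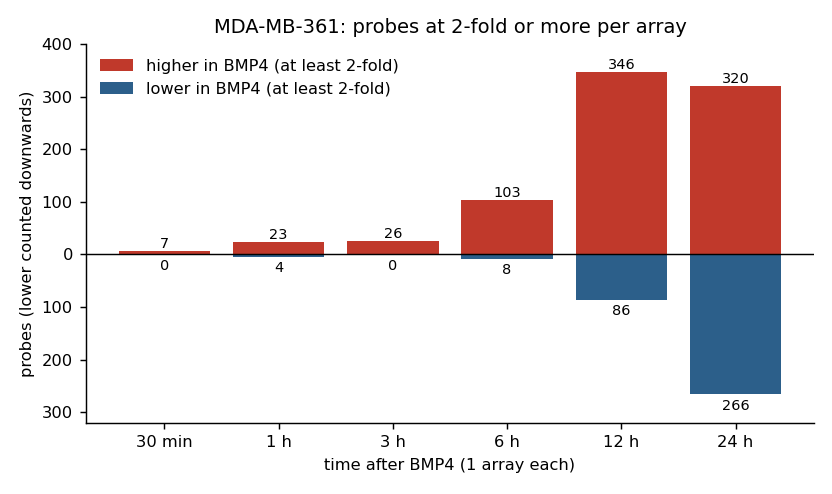
Probes past 2-fold on each MDA-MB-361 array (count on the vertical axis, time on the horizontal), higher in BMP4 above the axis and lower in BMP4 below it, among probes well above background on all 6 arrays. Higher probes rise from 7 at 30 min to 346 at 12 h, and lower probes reach 266 at 24 h.

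Held at 2-fold were 255 probes higher (0.986% of 25870) and 36 lower (0.139%). Of these 291 probes, 110 carry only a transcript or tag name. The higher ones fell into 3 classes by where their first run began. In 21 the run began by 3 h, in 76 at 6 h and in 158 at 12 h. With other scalings the split was 298 to 67 (normexp without offset), 367 to 9 (1 median per array), 338 to 140 (the software's own log ratio) and 324 to 177 (series matrix). Just inside the threshold on the higher side stood CCDC85A at 1.0017 and just outside BCAM at 0.9979; on the lower side they were LMO7 at -1.0017 and ADO at -0.9972.

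The early class of 21 probes brought together known BMP targets, both held SMAD genes and signaling genes. Its 14 named genes were ID2, ID4, DUSP2, EDN2, HOXB9, HEY1, CDH10, SMAD9, SMAD6, MAP3K5, GPER1, MTERF4, LIN7B and DLX2, the whole class being named after its values were seen. The class median ran 0.06, 0.77, 1.27, 1.58, 1.45 and 1.45 from 30 min to 24 h. It thus crossed 2-fold between 1 and 3 h and stayed there. The held probes were chosen on these very ratios, so the levels are a description.

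Among the inhibitors of helix-loop-helix factors, all 4 ID genes were held. ID1 (chr20:29657819-29657878, hg18) gave 0.29, 1.85, 0.89, 1.68, 1.57 and 1.61 at 30 min, 1, 3, 6, 12 and 24 h. Its highest point was 1 h, and the 3 h array was its lowest after that. ID2 gave 0.22, 1.35, 1.73, 1.78, 1.58 and 1.38 by 1 probe and 0.31, 1.02, 1.08, 1.36, 1.32 and 1.096 by another. Both ID2 probes were therefore past 2-fold on every array from 1 h on. ID3 (chr1:23758253-23758312) gave 0.21, 1.08, 0.97, 1.56, 1.36 and 1.42, and ID4 (chr6:19947489-19947548) gave -0.16, 0.75, 1.28, 1.43, 0.86 and 1.11. ID1, ID2 and ID3 had passed 2-fold by 1 h on the slide that also held 30 min; between those 2 arrays ID1 changed by 1.55, ID2 by 1.13 (first probe), ID3 by 0.87 and ID4 by 0.91.

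Tags lying beside ID genes on the opposite strand were raised too, but did not follow them at every step. CN479126, 729 bases from the ID1 probe, gave 0.56, 1.41, 1.63, 2.25, 2.07 and 1.65. AW327568, 843 bases from the ID3 probe, gave 0.22, 1.35, 1.67, 1.90, 1.89 and 2.32. Both were past 2-fold from 1 h to 24 h, including 3 h, where ID1 and ID3 themselves were just below it.

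Of the SMAD genes, 2 of 8 were held. SMAD6, an inhibitory SMAD that blocks the type I receptor, gave 0.15, 0.34, 1.06, 1.55, 1.42 and 1.36. SMAD9, the third of the receptor-regulated SMADs of the BMP branch (chr13:36320813-36320872, minus strand), gave 0.07, 0.09, 1.16, 1.64, 1.73 and 1.85. SMAD9 was near 0 through 1 h, while SMAD6 stood at 0.34 at 1 h, and both were past 2-fold at every later time. The tag BM802662 lies on the same strand 3266 bases away (chr13:36317488-36317547) and gave -0.11, 0.17, 1.49, 1.997, 1.70 and 1.70, which follows the SMAD9 probe. SMAD7, the other inhibitory SMAD, gave -0.09, 0.79, 0.39, 0.35, 0.32 and 0.31, so that its highest ratio was at 1 h and it never reached 2-fold. SMAD1, SMAD2, SMAD3, SMAD4 and SMAD5 ranged from -0.61 (SMAD4 at 12 h) to 0.37 (SMAD1 at 3 h) over the 6 arrays.

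The promoter of SMAD6 is shown because it was the only one of the 12 early-class genes with a match in RefSeq's promoter windows (GRCh38.p14, 250 bases before to 50 after each start) that held the SMAD palindrome GTCTAGAC. That motif reads the same on both strands and occurred in 0.153% of the 10452 matched genes above background and 0.256% of all 27305 genes. The 250 bases before the start (chr15:66701986-66702235, plus strand) read as follows, with the palindrome in capitals, its first base 12 bases before the start.
SMAD6: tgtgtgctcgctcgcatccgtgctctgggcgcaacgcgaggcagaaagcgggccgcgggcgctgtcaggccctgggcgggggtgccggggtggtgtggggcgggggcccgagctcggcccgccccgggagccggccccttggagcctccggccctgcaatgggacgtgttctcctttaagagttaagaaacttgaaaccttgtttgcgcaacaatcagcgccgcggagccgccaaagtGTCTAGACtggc
The shorter GC-rich SMAD motif GGCGCC was in 5 of the 12 early-class genes (41.7%) and in 36.2% of the genes above background. A match describes letters and not a bound site.

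The early class also held signaling and adhesion genes. DUSP2, a nuclear phosphatase that inactivates MAP kinases, gave 0.28, 1.40, 1.57, 2.02, 2.12 and 2.36, and its other probe gave 0.00, 1.12, 1.23, 1.70, 1.85 and 2.45. EDN2, a vasoactive endothelin peptide, gave -0.25, 1.29, 1.57, 1.43, 1.48 and 1.92. MAP3K5, the stress-activated kinase ASK1, gave -0.06, 0.22, 1.79, 1.61, 1.33 and 1.45. DUSP2 and EDN2 were past 2-fold from 1 h, MAP3K5 from 3 h. CDH10, a type II cadherin, gave 0.03, -0.19, 1.46, 1.89, 1.75 and 2.22, and GPER1, a G protein-coupled estrogen receptor, gave -0.21, 0.19, 1.12, 1.73, 1.69 and 1.58. Neither of these was raised at 1 h. Of the other 13 MAP kinase phosphatases and Sprouty-type inhibitors above background none was held, and the nearest was SPRY4 with 0.93 at 12 h. DUSP15, which that list does not hold, was held from 12 h (1.04 and 1.27 at 12 and 24 h).

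The class also held transcription factors. HOXB9 gave 0.10, 1.31, 1.25, 1.53, 1.24 and 1.02. HEY1, a hairy-related repressor shared by the Notch and BMP pathways, gave -0.22, 1.26, 1.12, 1.14, 0.46 and 0.68. DLX2 gave 0.06, 0.77, 1.08, 1.30, 1.06 and 1.29. HEY1 was under 2-fold again at 12 and 24 h. HOXB9 was the only 1 of 17 HOX genes above background that was held. The remaining named genes were MTERF4, a mitochondrial factor, at -0.30, 0.71, 1.22, 1.39, 1.23 and 1.86, and LIN7B, a scaffold protein of cell junctions, which lay between 1.17 and 1.298 from 3 h on.

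**Figure D2:**
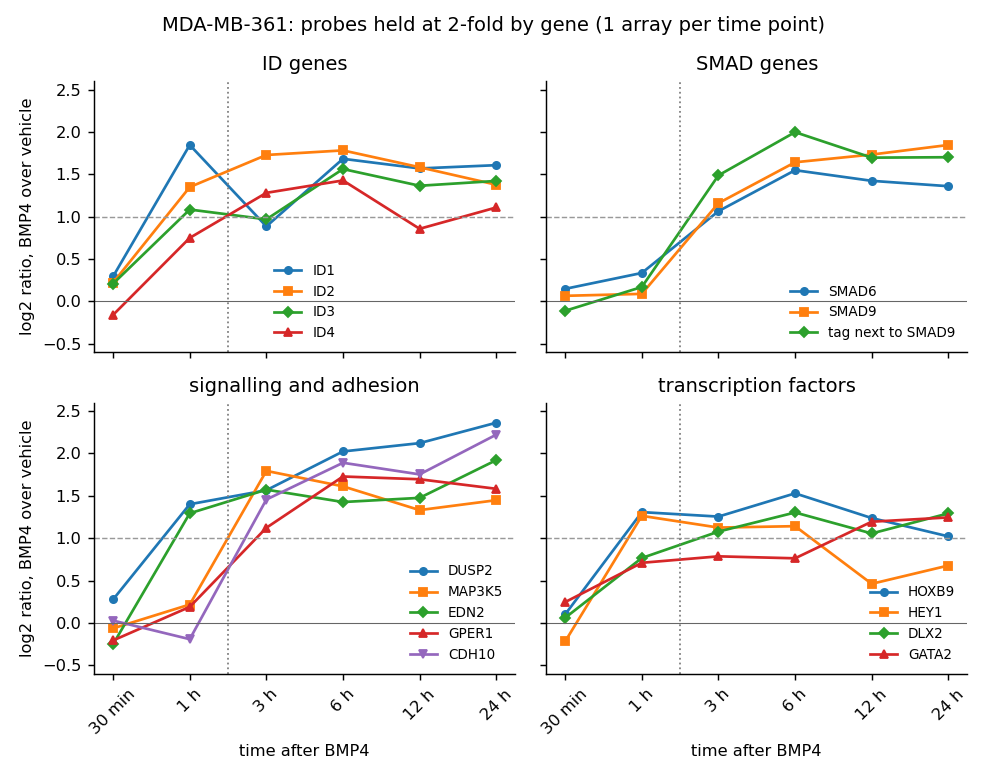
Log2 ratio of BMP4 over vehicle on the 6 MDA-MB-361 arrays, 1 array per time point, for the ID genes, the SMAD genes, the signaling and adhesion genes and the transcription factors named in the text. The dashed line is 2-fold and the dotted vertical line separates the slides; ID1 is at 1.85 by 1 h, whereas SMAD9 goes from 0.09 at 1 h to 1.16 at 3 h.

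The late change was tested across all probes with limma, taking the spread from the arrays of all 5 lines, since each late time point here is a single array. Of 40868 probes, 16 were called higher (0.0392%) and 5 lower (0.0122%) at an adjusted p under 0.05. Of the 25870 above background on all 6 arrays, 15 were higher (0.058%) and 3 lower (0.0116%). Among them BM802662 changed by 1.83 (SE 0.15, limma adjusted p = 1.46e-05), CDH10 by 1.80 (SE 0.23, adjusted p = 0.00464), SMAD9 by 1.53 (SE 0.21, adjusted p = 0.0103), MAP3K5 by 1.61 (SE 0.24, adjusted p = 0.0113) and SMAD6 by 1.2005 (SE 0.18, adjusted p = 0.0123). ID4 rose by 1.33 (SE 0.20) and ID3 by 1.12 (SE 0.18), at limma adjusted p of 0.0153 and 0.0169. EDN2 (1.85, SE 0.33) and the first DUSP2 probe (1.74, SE 0.31) were both at an adjusted p of 0.0493, next to the threshold. The other DUSP2 probe changed by 1.81 (SE 0.33, limma adjusted p = 0.0572) and was not called. The other genes called higher were MTERF4, HRCT1, HOXB9, CCDC85A, BMF, ZDHHC23 and SSTR1, and SSTR1 was not well above background in the vehicle channel on any of the 6 arrays. ID1 (1.14, adjusted p = 0.177), ID2 (1.40, adjusted p = 0.29) and GPER1 (1.74, adjusted p = 0.175) did not pass. When the reference was the 1 h array, the late change of ID1 was -0.41, as its 1 h ratio was already the highest.

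Of the genes called lower, only TNFRSF19, a receptor of the tumor necrosis factor family, was held. By that probe it gave 0.11, -0.33, -0.59, -0.90, -1.19 and -1.03 and fell by 1.04 (SE 0.15, limma adjusted p = 0.0103). Its second probe was not held and gave -0.16, -0.12, -0.30, -0.25, -0.42 and -0.33. MTFR1 gave 0.79 at 30 min and -0.35 to -0.09 on the later arrays, so its call rested on the 30 min array. ARPP21, a locus ID and a tag were the others, and with 1 h as the reference ARPP21 stood at 0.05. The count of 21 came to 0 when only the 6 arrays of this line were used and to 309 with the software's own log ratio (133 higher, 176 lower). It was 4 with 1 median per array and 105 with normexp without offset (45 higher, 60 lower).

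The same change was measured in the other 4 lines; HCC1419 and ZR-75-30 each have 2 late arrays on the slide of their 30 min array. Over their mean, 23 of 40919 probes were called higher (0.0562%) and 9 lower (0.022%). ID1 (0.99, limma adjusted p = 0.00133), ID2 (1.31, adjusted p = 0.00165), ID3 (0.92, adjusted p = 4.88e-05), ID4 (0.85, adjusted p = 0.000754), SMAD6 (0.64, adjusted p = 0.00282) and BMF (0.67, adjusted p = 0.000552) were among those called higher. Using only the late arrays that shared a slide with 30 min, in HCC1419 and ZR-75-30, 4 probes were called higher (0.00977%) and 3 lower (0.00733%), the higher ones being ID2 (1.12, adjusted p = 0.0103), ID3 (0.90, adjusted p = 0.0487), GATA2 (0.98, adjusted p = 0.0487) and LIN7B (0.92, adjusted p = 0.0456). For these genes a rise within 1 slide was thus measured in other lines. Of the 255 probes held higher in MDA-MB-361, 12 were called higher in the other lines, where 0.0734% of the 25870 probes were, and of the 36 held lower, 0 were called lower, where 0.00387% were.

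The estimated late change of SMAD9 was larger here than in each of the other 4 lines, whereas that of CDH10 was nearly as large in HCC1419. The test of the difference called neither gene and reached only the tag beside SMAD9. BM802662 changed by 1.83 here, against 0.18 (HCC1419), 0.28 (HCC1954), 0.10 (SK-BR-3) and 0.26 (ZR-75-30), a difference of 1.63 (SE 0.17, limma adjusted p = 0.000573). It was the 1 probe of 40799 called (0.00245%). SMAD9 itself changed by 0.03, 0.41, 0.24 and 0.37 in the same lines, a difference of 1.27 with an adjusted p of 0.195. CDH10 changed by 1.57 in HCC1419 and by 0.00, 0.19 and -0.01 in HCC1954, SK-BR-3 and ZR-75-30, so that HCC1419 was on the side of MDA-MB-361; the difference from the mean of the 4 was 1.36 (adjusted p = 0.188). HRCT1 changed by -0.04 to 0.03 in the other lines and by 1.16 here (difference 1.16, adjusted p = 0.0639). DUSP2 stood at 1.195, 0.08, 1.14 and 0.89 by its first probe and at 0.72, 0.08, 0.43 and 0.61 by the other, with only HCC1954 near 0.

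**Figure D3:**
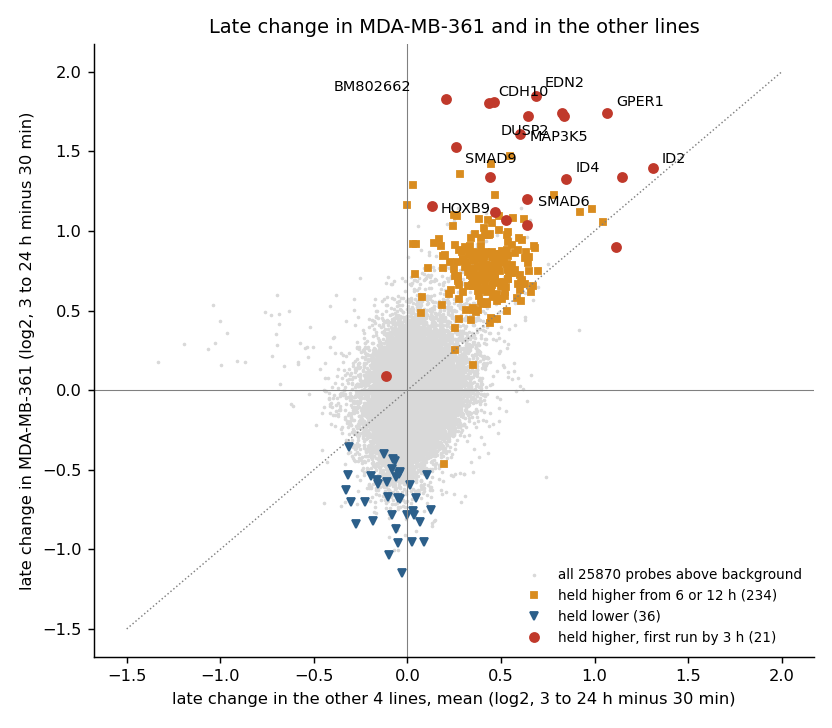
Late change (mean of 3 to 24 h minus 30 min, log2) in MDA-MB-361 on the vertical axis against the mean of the other 4 lines on the horizontal axis, 1 point per probe above background, with held probes colored by class. BM802662 and SMAD9 lie high at 0.21 and 0.26 on the horizontal axis, ID2 lies near the dotted line of equal change, and held-lower probes lie near 0 on the horizontal axis.

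Apart from SMAD6, SMAD9 and the antagonist CHRD, no component of the pathway was called or held. Of the 12 receptor and co-receptor genes, 7 were above background (BMPR1A, BMPR2, ACVR1, ACVR2A, ACVR2B, RGMA and RGMB), and 0 were called or held. Their median late change was -0.12, against -0.0011 over all probes tested. Of the 13 feedback inhibitors all were above background and SMAD6 alone was called or held, with a median late change of 0.07. Among ligands, BMP4 itself, BMP7, BMP8A and GDF5 were above background and none was held, with BMP4 RNA between -0.12 and 0.01. Of 17 secreted antagonists 6 were above background, and CHRD, which binds BMP4 and keeps it from its receptors, was held from 12 h (-0.15, 0.29, 0.26, 0.80, 1.36 and 1.38), although its second probe reached only 0.22. Of 19 genes listed as BMP targets 17 were above background, 2 (ID3 and ID4) were called higher and 6 were held. Among all 25870 probes above background 0.058% were called higher and 0.986% were held higher. The median late change of these targets was 0.75 here and 0.62 in the other lines.

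The cell death and cell cycle genes moved in part. MAP3K5 and BMF, a BH3-only protein that binds BCL2 family members, were called among 20 cell death regulators above background. Among all probes above background 0.058% were called higher and 0.986% were held higher. BMF gave 0.11, 0.55, 0.85, 1.00, 1.07 and 1.12, a late change of 0.91 (SE 0.16, limma adjusted p = 0.0401). BCL2, which blocks apoptosis, was held by 1 probe (0.25, 0.23, 0.57, 1.36, 1.40 and 1.34) and stayed between 0.40 and 0.65 from 3 h on by another. CDKN1A, which encodes the cyclin-dependent kinase inhibitor p21, was held from 12 h (0.32, 0.36, 0.54, 0.84, 1.08 and 1.04), and its second probe ended at 0.94. BBC3, the BH3-only protein PUMA, was held by 1 probe (up to 1.43 at 12 h), while its other probes lay at 0.08 and -0.41 at that time.

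IGFBP3, which binds insulin-like growth factors, and the chemokine CXCL14 rose slowly. IGFBP3 gave -0.02, 0.00, 0.77, 1.48, 1.65 and 1.90. CXCL14 gave -0.18, -0.01, 0.56, 0.86, 1.59 and 1.95, and PAQR8, a membrane progesterone receptor, gave -0.08, 0.35, 0.79, 0.98, 1.41 and 1.93. All 3 were highest at 24 h. None passed the test of the late change (limma adjusted p = 0.337, 0.627 and 0.293), and the change of CXCL14 in HCC1419 was 1.497 against 0.03 to 0.22 in the other 3 lines.

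The probes held from 6 h (76) or 12 h (158) were a mixed group. They hold ID1, ID3, IGFBP3, BCL2 and JUNB (from 6 h) and BMF, GATA2, CXCL14, CHRD and CDKN1A (from 12 h). They also hold developmental transcription factors, such as NEUROG3, POU3F3, SOX1, SOX3, SOX8, SOX17, SOX18, HES7 and FOXC2. Of 14 SOX genes above background 5 were held higher, and of 31 FOX genes 4 were held higher and FOXD2 lower. These families were chosen after their values were seen. Over all probes above background 0.986% were held higher and 0.139% lower, a share of probes, while the families are counted by gene. In the separate list of SOX and homeobox genes 1 of 19 above background was held. NEUROG3, a proneural factor, gave 0.64, 0.76, 0.34, 1.80, 2.49 and 1.83. POU3F3 gave 0.49, 0.62, 0.27, 1.197, 1.81 and 1.42, and SOX18 gave 0.11, 0.27, 0.03, 0.99, 1.18 and 1.21. These 3 genes were lower at 3 h than at 1 h, which lay on the other slide, and stepped up between 3 and 6 h on the same slide. The median of the class held from 12 h did so too, with 0.49, 0.22 and 0.85 at 1, 3 and 6 h, as did that of the class held from 6 h. The class held from 6 h had medians of 0.24, 0.53, 0.27, 1.12, 1.56 and 1.24, with its quartiles at 1.42 and 1.68 at 12 h, and 63 of its 76 probes were highest at 12 h.

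In the other lines the ratios of those probes also went far from 0, below it as well as above. Averaged over the other 4 lines, the median late change of the class held from 6 h was 0.47, against 0.018 over all probes above background. This rise came mainly from ZR-75-30 and SK-BR-3. The class median at 30 min was -0.68 (ZR-75-30), -1.71 (SK-BR-3), 0.05 (HCC1954) and -0.47 (HCC1419). From 3 to 24 h it ran 0.68, -0.04, 0.94 and 0.27 for ZR-75-30, and -0.02, -0.66, -1.93 and 0.41 for SK-BR-3. For HCC1954 it ran 0.07, -0.36, 0.47 and -0.37, and for HCC1419 -1.58, -0.67, -0.72 and -0.13. The median of the class held from 6 h was above 0 on 9 of the 24 other arrays and ran from -1.93 (SK-BR-3, 12 h) to 1.01 (SK-BR-3, 1 h). It was below 0 on all 6 arrays of HCC1419. The early class was above 0 on 24 of 24 arrays, with medians from 0.01 to 1.02. Where a gene of the class held from 6 h had other probes above background, 1 of 31 such probes was held and their median of the late ratios was 0.05. In the class held from 12 h it was 4 of 54, with a median of 0.01, and these 4 were probes of GRIN1 and SEMA3B that are themselves members of the class. In the early class 4 of the 8 other probes are members too, so no share is given. The median GC content of the promoter windows was 70% for the class held from 6 h, 68.7% for the early class and 64.7% for the genes above background; for the class held from 12 h only 73.8% of the genes had a window, so that check is void. The part of base composition or of probe design in these ratios was not tested.

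**Figure D4:**
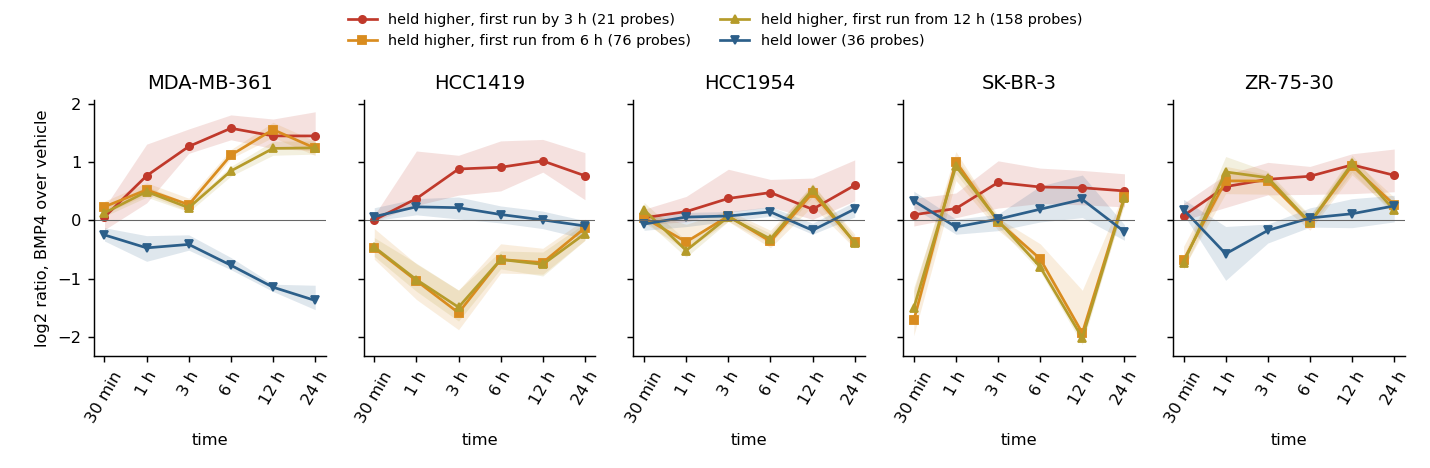
Median log2 ratio (lines) and quartiles of the probes (bands) of the 4 classes of held probes on the 6 arrays of each line, with time on the horizontal axis. The early class is above 0 in every line, whereas the classes held from 6 and 12 h go together from -2.01 to 1.01 across arrays of the other lines.

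The held-lower set of 36 probes started its first run at 6 h (2 probes) or 12 h (34 probes). Its median was -0.25, -0.47, -0.41, -0.77, -1.14 and -1.37 from 30 min to 24 h, so it fell on the slide of 3 to 24 h at each step. On the other lines' arrays the median lay between -0.57 and 0.36. Of 30 other probes of the same genes 0 were held, while 25 of the 29 with all 4 late values were on the same side, at a median of -0.32. Among the lowest genes were ADD3, a membrane skeleton adducin (0.03, -0.99, -0.72, -1.08, -1.31 and -1.36, with its second probe between -0.05 and 0.16), and the glycan-processing enzymes MAN1A1 (-1.51 at 24 h, and -0.90 by its second probe) and ST6GAL1 (-1.46). BECN1 of autophagy stood at -1.59 at 24 h by 1 probe and at 0.02 and 0.12 by its other probes.

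The held-lower set also held CDC45, CDT1 and GINS3 of DNA replication, and the full list of 25 replication genes was low on the 24 h array. All 25 were above background, and at 24 h 25 of 25 were below 0, 18 of them by 2-fold or more, whereas 50.7% of all probes were below 0. The list's median was -0.16, -0.08, -0.03, -0.09, -0.47 and -1.35 over the time course. At 6 h none was at 2-fold, at 12 h 2 were, and the drop came between 12 and 24 h. Under the other 4 scalings the 24 h median lay between -1.45 and -1.37 with 25 of 25 below 0.

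CDC45, which activates the replicative helicase, gave -0.20, -0.40, -0.31, -0.52, -1.04 and -2.23. CDT1, which loads that helicase onto origins, gave -0.50, -0.16, -0.65, -0.71, -1.2005 and -2.19. GINS3, a subunit of the helicase complex, gave -0.29, -0.38, -0.48, -0.53, -1.15 and -2.02, and CDCA7 gave -0.57, -0.26, -0.24, -0.58, -1.36 and -2.35. These probes were the 4 deepest at 24 h among those named. The depth depended on the probe, as second probes stood at -1.19 (CDT1), -0.70 (GINS3) and -1.21 (CDCA7) at 24 h. The helicase subunits MCM2 to MCM7 lay between -1.56 (MCM7) and -0.89 (MCM3) at 24 h, and between -0.58 (MCM6) and 0.09 (MCM2) at 12 h. PCNA, the sliding clamp, went from -0.43 to -1.35, RFC4 of the clamp loader from -0.50 to -1.87, and TYMS, which makes thymidylate, from -0.51 to -1.94. UHRF1, which keeps methylation of newly made DNA, was held by 1 probe (-0.49, -0.09, no value at 3 h, -0.68, -1.12 and -1.79), and its other probe ended at -1.05.

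The planned test of this shift, 12 and 24 h against 3 and 6 h within 1 slide, called 0 of 40938 probes (0%) at an adjusted p under 0.05, with 2606 at an unadjusted p under 0.05 and a smallest limma adjusted p of 0.195. For the replication genes the median of that change was -0.77, against -0.0018 over all probes tested, and 22 of 25 were lower at an unadjusted p under 0.05, where 4.99% of all probes above background were. When the 12 h array was left out, so that 24 h stood alone against 3 and 6 h and was assumed to vary like the other groups, 44 probes were called higher (0.107%) and 197 lower (0.481%), and 18 of the 25 replication genes were among the lower. Leaving out each array was planned for the count of calls, and the replication genes were counted in that fit after the total was seen.

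The mitotic genes lay lower by far less. Of 26 genes, 24 were below 0 at 24 h, at a median of -0.29, whereas 50.7% of all probes above background were below 0. Among cell cycle regulators, E2F2 stood at -1.17, CCNE2, a cyclin of the start of S phase, at -1.43, E2F1 at -0.90 and MYC at -0.75 at 24 h, while CCND1 stood at 0.04. In the other lines the replication genes' median at 24 h was -0.11 (HCC1419), -0.04 (HCC1954), -0.16 (SK-BR-3) and -0.18 (ZR-75-30). The mitotic genes' median at 24 h was -0.46 in ZR-75-30 (22 below 0), which was lower than in MDA-MB-361. It was -0.17 in SK-BR-3 (25 below 0), -0.07 in HCC1419 (19) and -0.01 in HCC1954 (13). The difference between lines was not tested for either list. No count of cells was measured, and fewer cells in S phase and less RNA of these genes per cell cannot be told apart.

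**Figure D5:**
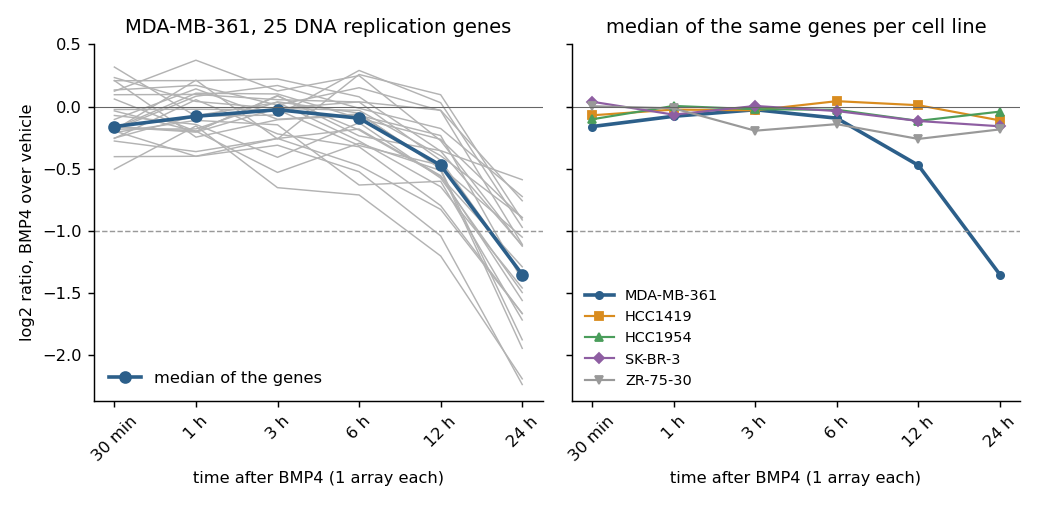
Left, log2 ratio of BMP4 over vehicle of 25 DNA replication genes on the 6 MDA-MB-361 arrays (gray, 1 line per gene) with their median (blue); right, the median of the same genes in each of the 5 lines. The MDA-MB-361 median falls from -0.47 at 12 h to -1.35 at 24 h, and at 24 h the other lines lie between -0.18 and -0.04.

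Many replication genes are known targets of E2F factors, and the promoters of 3 held-lower genes are shown for that reason. An E2F-type motif (TTTCCCGC, TTTCGCGC, TTTGCCGC or TTTGGCGC, either strand) was found in RefSeq's windows of 14 of the 22 replication genes with a window (63.6%) and of 8 of the 28 held-lower genes (28.6%). It was in 6.65% of the genes above background and in 3.99% of all. Of the mitotic genes 3 of 21 had it (14.3%), and of the early class 0 of 12. The 250 bases before the start are given for CDT1 (chr16:88803539-88803788), UHRF1 (chr19:4909251-4909500) and CDCA7 (chr2:173354622-173354871), GRCh38.p14, plus strand, with 1 match each in capitals, which is GCGGGAAA, the motif on the opposite strand, starting 35, 14 and 65 bases before the start.
CDT1: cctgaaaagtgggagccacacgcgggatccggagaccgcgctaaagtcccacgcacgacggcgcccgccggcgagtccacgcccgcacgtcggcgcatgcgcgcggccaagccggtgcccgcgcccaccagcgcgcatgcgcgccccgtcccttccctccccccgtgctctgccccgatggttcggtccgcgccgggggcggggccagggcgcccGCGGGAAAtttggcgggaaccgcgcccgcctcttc
UHRF1: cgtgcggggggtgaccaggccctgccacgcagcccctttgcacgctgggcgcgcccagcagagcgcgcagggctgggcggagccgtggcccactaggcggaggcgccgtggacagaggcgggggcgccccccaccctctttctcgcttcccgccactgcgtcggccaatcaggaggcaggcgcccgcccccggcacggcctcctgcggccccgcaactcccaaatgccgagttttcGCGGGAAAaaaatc
CDCA7: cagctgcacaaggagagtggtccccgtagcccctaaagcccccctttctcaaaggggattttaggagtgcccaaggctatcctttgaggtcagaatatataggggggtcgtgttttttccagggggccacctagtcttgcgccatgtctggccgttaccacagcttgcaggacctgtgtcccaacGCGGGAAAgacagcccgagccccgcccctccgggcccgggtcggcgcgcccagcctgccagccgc
These 3 genes had ratios of -2.19, -1.79 and -2.35 at 24 h. CDC45, as low at 24 h, had no match in its window.

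The other lists were read by the brightest probe of each gene, so another held probe of a gene is not counted. Over all probes above background 0.058% were called higher, 0.0116% called lower, 0.986% held higher and 0.139% held lower. A count of 0 in lists of this size is therefore near the share over all probes. Of the 23 luminal genes 0 were called or held, with ESR1 between -0.51 and 0.05, ERBB2 between -0.43 and 0.16 and GATA3 between 0.00 and 0.33 over the 6 arrays. Of 11 basal and mesenchymal genes above background 0 were called or held, while CDH2, which encodes N-cadherin, gave -0.01, -0.10, 0.05, 0.44, 0.92 and 1.32. From 3 and 6 h to 12 and 24 h, 4 of these 11 were higher at an unadjusted limma p under 0.05. The share of all probes above background was 2.93%. Of 17 genes of the WNT pathway, 20 of matrix and matrix proteases and 17 of cholesterol synthesis above background, 0 were called in either direction or held. The count was also 0 for 14 immediate early genes, 16 stress response genes and 12 interferon response genes. By the same unadjusted test 4 of the WNT genes were lower, against 4.99% of all probes above background. Of 13 hypoxia and glycolysis genes above background 0 were called or held. At 24 h 12 of them were above 0, and 3 were higher by the unadjusted test. Of the 13 listed Notch pathway genes above background HES7 alone was held; HEY1 and HES1 are listed with the BMP targets, and HES1 was past 2-fold on the 1 h array only (1.18).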

How the data were processed

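The 6 MDA-MB-361 arrays were analysed together with the 24 arrays of the other lines. Per the file headers, the authors extracted the signals with Agilent Feature Extraction 9.5.1.1 on a design of build hg18 (NCBI36). Of the deposited intensity columns, the mean and local background signals are not normalized, and the processed signals are background-subtracted and dye-normalized. The deposited log ratio is log10 of Cy5 over Cy3, and the authors' series matrix holds log2 ratios whose median is 0 on each array. Here signals were corrected by normexp with offset 50 and normalized by loess within arrays in limma 3.58.1 (R 4.3.3), leaving out the 1639 control spots, and spots were averaged over 41000 probes. Coordinates are those of the array files (hg18), and exon annotation was not used here. Of the probes, 13255 had no current gene symbol in RefSeq's table.

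Limma was fitted to 15 group means (15 residual degrees of freedom) for the late change and to 20 for the change among late arrays (10), with Benjamini-Hochberg adjustment over all probes with a value. The scripts were tested on simulated data. The number of arrays limits the precision, and since every array is 1 pool, the p-values measure the spread between time points and not between cultures. The members and lists were chosen with earlier results of these data known. Named genes were ID1 to ID4, listed genes held or called (up to 3 a list), the 10 highest and 10 lowest held genes and the 5 each way with the smallest p of the difference between lines; others were chosen after their values were seen. A list gene is read by its brightest probe.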

Additional observations from a re-analysis of the deposited data

Results flagged for a closer look

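Among 44 groups of 4 late values examined, 3 had 1 array far from the other 3, and chance marks about 1 in 20 such groups. All 3 were at 3 h. ID1 gave 0.89 at 3 h against 1.57 to 1.68 at 6, 12 and 24 h. The tag CN479126 beside ID1 gave 1.63 at 3 h and 2.25, 2.07 and 1.65 at 6, 12 and 24 h. BCL2 gave 0.57 at 3 h (0.575 before rounding) against 1.34 to 1.40 by the same probe. By its second probe 3, 6, 12 and 24 h gave 0.40, 0.45, 0.65 and 0.57, and 3 h did not stand apart. JUNB, a subunit of the AP-1 transcription factor, gave 0.54 at 3 h against 1.04 to 1.099. The 3 h array also had the lowest spike-in slope of the 6, 0.525, and the part of that in these values was not tested. The tag BM802662 beside SMAD9 is listed because its late change differed between MDA-MB-361 and the mean of the other 4 lines by 1.63 (SE 0.17, limma adjusted p = 0.000573).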

How the results depend on the processing

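The 21 calls of the late change became 105 with normexp without offset, 4 with 1 median per array, 309 with the software's log ratio, 109 in the series matrix, 0 with only the 6 arrays of the line, 35 with an intensity trend and 35 with the slide as a random block; they were 15 to 32 with 1 late array left out. The 32 calls in the other lines became 5 with 1 median per array, 323 with the software's log ratio, 21 with only probes above background, 16 without SK-BR-3 and, in an alternative chosen after seeing the data, 7 on the shared slides, and ran from 29 to 36 with 1 late array of MDA-MB-361 left out. The 1 call of the difference became 59, 296 and 54 with normexp without offset, the software's log ratio and the series matrix, 2 without ZR-75-30 and 1 to 10 with an array left out (10 without 3 h). The 0 calls among late arrays became 46 with the software's log ratio and 5 in the series matrix, and 11 to 241 with an array left out (241 without 12 h). With the time point as a replicate block the 4 counts were 25, 40, 1 and 0, and as the time points are not replicates of one culture the block is given as a setting only.

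The 255 probes held higher became 85 over 3 consecutive time points, 14 at 3-fold, 669 at 1.5-fold, 155 after subtracting 30 min and 89 to 253 with an array left out (89 without 12 h, 97 without 24 h). The 36 held lower became 67 with normexp without offset, 9 with 1 median per array, 140 with the software's log ratio, 177 in the series matrix, 1 over 3 consecutive time points, 0 at 3-fold, 530 at 1.5-fold, 11 after subtracting 30 min and 2 to 36 with an array left out (2 without 12 h and 2 without 24 h). Asking for another held probe of the same gene, chosen after seeing the data, left 10 and 0. The 1189 crossings of 2-fold over the 6 arrays became 1847 with 1 median per array, 2491 with the software's log ratio and 2605 in the series matrix. One median per array moved the median of all probes above background to 0.27 at 30 min, 0.16 at 6 h and 0.18 at 12 h. With 1 h as the reference the late change turned to -0.41 for ID1, to -7e-04 for JUNB, to 0.0104 for ZNF674 and to 0.0546 for ARPP21; the cause was not tested. Of 15 alternatives for the late change, the SMAD9 call held in 14 and the BM802662 call in 14. The calls of SMAD6 and MAP3K5 held in 13 each, that of DUSP2 (first probe) in 8 and that of EDN2 in 7. The fit on the 6 arrays alone was not run for the other lines and the difference.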
